A study of Homo sapiens with 15 samples.

Results

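The comparison described here set U251 cells collected 24 h after 6 Gy of ionizing radiation against U251 cells collected 6 h after the same dose, across all genes. U251 is an established human glioblastoma line. The members were chosen by their labels alone: 3 libraries from the 24 h collection and 3 from the 6 h collection, 6 of the 15 libraries of the series. The remaining libraries came from cells collected 24 h or 6 h after 1 Gy and from unirradiated cells, 3 each, and none of them entered the main comparison. All cells were of the same line and labelled wild type, each group was 3 libraries that the study describes as biological replicates, and irradiation was the only treatment. The control is labelled 0 h, yet its record places its harvest at 24 h after the others were exposed. The series therefore holds no unirradiated cells collected at 6 h, and the time since exposure and the time in culture cannot be told apart in what follows. The question addressed was how the transcriptome of cells exposed to a high dose differed between an early collection and one made 18 h later.

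After double-strand breaks form, the kinases ATM and ATR halt the cell cycle at the G1/S and G2/M checkpoints, and damaged cells are held before mitosis until the block is lifted. Genes that serve mitosis are transcribed mainly in G2, through promoters that carry a cell cycle homology region (CHR) and CCAAT boxes, bound by the DREAM and MMB complexes and by NF-Y. In the following hours surviving cells of many types also secrete cytokines, remodel their matrix and rearrange lipid metabolism, where the SREBP transcription factors drive genes of sterol and fatty acid synthesis.

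Of 22447 genes in the count table, 12306 passed the filter on low counts and were tested. At 24 h, 914 genes were higher and 390 were lower than at 6 h (edgeR, quasi-likelihood test, p-values adjusted by Benjamini-Hochberg, called where the adjusted p was below 0.05 and the change exceeded 0.5 on the log2 scale in either direction, which is 1.41-fold). This amounted to 10.6% of the tested genes, 7.43% higher and 3.17% lower. The median log2 fold change over all tested genes was 0.000419. Changes above 2-fold were found for 206 higher and 58 lower genes. The libraries were similar in depth, with 9590853 to 9880528 counts at 24 h and 9183696 to 9664778 counts at 6 h. Levels below are CPM, counts scaled to a common library size after TMM normalization, which compare 1 gene between libraries and not different genes with each other. Values in a sentence follow replicates 1, 2 and 3, and every fold change is 24 h over 6 h.

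**Figure D1:**
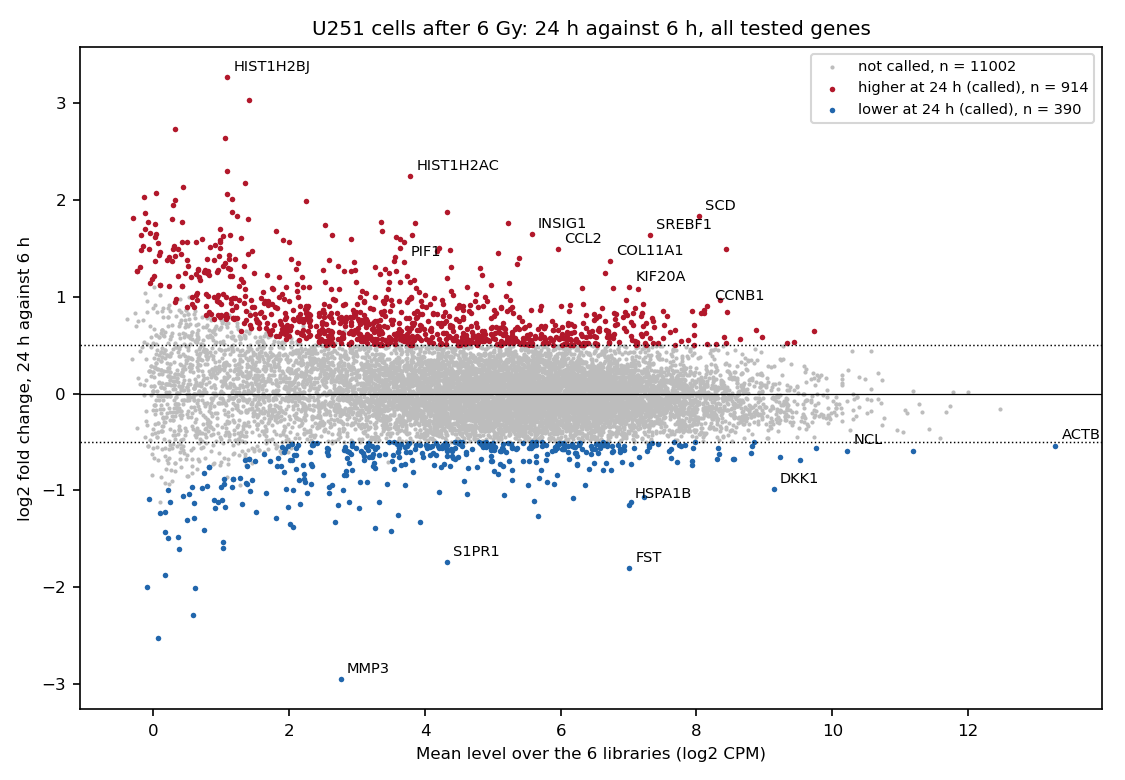
Mean level over the 6 libraries (log2 CPM, x axis) against the log2 fold change of 24 h over 6 h after 6 Gy (y axis) for the 12306 tested genes. Red points are the 914 genes called higher at 24 h, blue points the 390 called lower, grey points the rest, and dotted lines mark 0.5 and -0.5. The largest changes were among genes of low level, while SCD, SREBF1, FST and DKK1 changed at high levels.

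The promoters of called mitotic genes are shown because mitotic genes made up 11 of the 34 genes whose time course differed between the doses. Of the 55 genes in the list of G2 and mitosis, 14 were higher at 24 h, and 13 of these had a promoter in the RefSeq table (GRCh38.p14, 250 bases before to 50 after the start of the gene). The letters TTTGAA of the CHR were found in 9 of the 13 promoters (69.2%), against 15.4% of 27305 promoters, and CCAAT in 13 of 13 (100%), against 35.7%. Both strands were searched. The 41 members of the list that were not called were not scanned, so these shares cannot set the called members apart from other mitotic genes. Shown are the 250 bases before the start for the 3 members with the lowest adjusted p that held TTTGAA, with each match to TTTGAA or CCAAT on either strand in capitals. No match overlapped another. The ASPM stretch is chr1:197146670-197146919 on the minus strand, that of PIF1 is chr15:64825648-64825897 on the minus strand and that of CCNB2 is chr15:59104896-59105145 on the plus strand.
ASPM: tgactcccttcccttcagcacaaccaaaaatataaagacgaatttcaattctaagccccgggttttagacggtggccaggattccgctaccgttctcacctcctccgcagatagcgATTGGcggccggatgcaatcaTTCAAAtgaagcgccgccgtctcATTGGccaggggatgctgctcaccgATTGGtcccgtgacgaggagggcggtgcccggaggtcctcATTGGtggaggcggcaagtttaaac
PIF1: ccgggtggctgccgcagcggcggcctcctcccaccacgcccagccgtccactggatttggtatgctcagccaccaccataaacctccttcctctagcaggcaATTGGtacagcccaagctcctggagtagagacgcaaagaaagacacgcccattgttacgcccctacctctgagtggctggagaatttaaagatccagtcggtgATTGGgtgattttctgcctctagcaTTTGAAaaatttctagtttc
CCNB2: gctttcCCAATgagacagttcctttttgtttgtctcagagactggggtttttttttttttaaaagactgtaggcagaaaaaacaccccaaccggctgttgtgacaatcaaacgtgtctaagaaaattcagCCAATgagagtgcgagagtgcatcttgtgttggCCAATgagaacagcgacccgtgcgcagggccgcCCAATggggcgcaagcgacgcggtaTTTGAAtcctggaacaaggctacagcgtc
The match to TTTGAA began 113 bases before the start in ASPM, 20 in PIF1 and 29 in CCNB2. KIF20A, CCNB1 and PTTG1 were among the promoters without these letters in the window. A match is a string of letters and not a measured binding site.

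A subset of mitotic genes was higher at 24 h than at 6 h after 6 Gy. In the list of G2 and mitosis, 14 of 55 tested members were higher (25.5%, against 7.43% of all tested genes) and 0 were lower, while 41 were not called. The median log2 fold change was 0.19, and 17 members had a negative one. KIF20A, a kinesin of the central spindle needed for cytokinesis, had 177, 179 and 172 CPM at 24 h and 84.8, 80.3 and 81.4 CPM at 6 h. The groups were far apart, with a fold change of 2.14 (log2 1.10 ± 0.0627 SE, edgeR adjusted p = 1.02e-08). Its locus (hg19, chromosome 5, 137514417 to 137523404) overlaps CDC23 on the opposite strand, and the sources used here do not say whether reads were counted by strand. CCNB1, the cyclin that activates CDK1 at entry into mitosis, had 346, 395 and 378 CPM at 24 h and 182, 198 and 219 CPM at 6 h (log2 0.90 ± 0.0714, edgeR adjusted p = 3.06e-07). Again no 24 h library reached down to the 6 h libraries, while the groups did not overlap in 46.2% of all tested genes. Unirradiated libraries held 513 to 579.9 CPM of CCNB1 and 243 to 256 CPM of KIF20A.

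PIF1, a DNA helicase, had 19.0, 19.2 and 17.6 CPM at 24 h and 7.29, 6.63 and 7.80 CPM at 6 h, with 35.4 to 38.4 CPM in unirradiated cells. This was the largest change in the list (log2 1.36 ± 0.121, edgeR adjusted p = 9.6e-07). ASPM, a spindle pole protein, averaged 144 ± 9.49 CPM at 24 h and 81.7 ± 5.25 CPM at 6 h (SD, n = 3 each). CCNB2, another mitotic cyclin, averaged 184 ± 5.99 CPM at 24 h and 114 ± 3.42 CPM at 6 h. PTTG1 is securin, which blocks the separation of sister chromatids until anaphase. It averaged 153 ± 3.03 CPM at 24 h and 88.6 ± 6.10 CPM at 6 h, and its 24 h level lay above the highest unirradiated library, at 143 CPM. PLK1, the Polo-like kinase that promotes mitotic entry, had 203, 180.4 and 188 CPM at 24 h and 133, 127 and 125 CPM at 6 h. Its log2 fold change was 0.57 ± 0.0667 (edgeR adjusted p = 1.44e-05), and unirradiated libraries held 301 to 347 CPM.

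Other mitotic regulators moved less. CDC20, the activator of the anaphase-promoting complex, averaged 349 ± 7.56 CPM at 24 h and 256 ± 10.4 CPM at 6 h, a log2 fold change of 0.45 that passed the adjusted p (3.49e-05 by edgeR) but not the fold threshold. CDC25C, the phosphatase that activates CDK1, had a log2 fold change of 0.35 ± 0.119 (edgeR adjusted p = 0.0317), also short of the fold threshold. For PRC1 and KIF23, which act at the central spindle, the log2 fold changes were 0.15 ± 0.065 and -0.04 ± 0.065, with 24 h and 6 h libraries that overlapped. By the adjusted p alone, 28 of the 55 members were higher, beside 2154 of all 12306 tested genes. Lower by the adjusted p alone were 2084 of all tested genes and 6 members, which did not pass the fold threshold. Among them CDK1, the kinase that drives mitotic entry, averaged 197 ± 28.7 CPM at 24 h and 256 ± 19.7 CPM at 6 h (log2 -0.37 ± 0.0886, edgeR adjusted p = 0.0042), and AURKB, a kinase of chromosome segregation, averaged 107 ± 2.69 CPM at 24 h and 130 ± 5.70 CPM at 6 h (log2 -0.27 ± 0.0642, edgeR adjusted p = 0.00402). In RNA from a whole culture, fewer cells in mitosis and less RNA of a gene per cell cannot be told apart.

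The time course of 11 of the 55 mitotic genes differed between the doses. The change from the 6 h to the 24 h collection was compared between 6 Gy and 1 Gy in a fit of 11 irradiated libraries (edgeR, interaction of dose and time), without replicate 2 of 1 Gy at 6 h, which the study does not list in its expression table. Of 12677 genes tested, 31 had a more positive change after 6 Gy (0.245%) and 3 a more negative one (0.0237%), 0.268% in all. Of the 31 genes, 11 belonged to the list of G2 and mitosis. KIF20A had 209 to 233 CPM at 24 h and 190.0 to 219.6 CPM at 6 h after 1 Gy, groups of 3 libraries that overlapped (the left-out library is included in such ranges), so that the difference between the doses was 1.09 ± 0.0922 on the log2 scale (edgeR adjusted p = 1.1e-06). For PIF1 the difference was 1.53 ± 0.151 (edgeR adjusted p = 6.35e-06), for ASPM 0.97 ± 0.117 (adjusted p = 0.000114), for CCNB1 0.83 ± 0.109 (adjusted p = 0.000321), for PLK1 0.71 ± 0.0921 (adjusted p = 0.000316) and for CCNB2 0.59 ± 0.0979 (adjusted p = 0.00604). In these 6 genes the log2 change after 1 Gy lay between -0.17 and 0.10. PTTG1 (difference 0.50), CDC20 (0.45), PRC1 (0.22), CDC25C (0.10) and KIF23 (0.04) were not called. The difference of CDC20 passed the adjusted p (0.0366 by edgeR) but not the threshold of 0.5 on the log2 scale. With the left-out library restored, the 31 genes became 16 and the 3 became 1. The calls of ASPM and KIF14 of the mitotic list were among those lost, as were those of LAMA5, AKR1C3 and BTG3, described below. In 23 of the 31 genes, among them all 11 of the mitotic list, every 6 Gy library of the 6 h collection was below every control library and every 1 Gy library of that collection. This is a description, since the same 6 Gy libraries entered the test that chose the genes. The share of all tested genes so placed was not counted, so nothing is drawn from these numbers.

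Genes outside the mitotic list were also called. CCNB3, another B-type cyclin, had 28.5, 27.5 and 26.1 CPM at 24 h and 9.69, 8.91 and 10.3 CPM at 6 h after 6 Gy. After 1 Gy it had 31.8 to 33.2 CPM at 24 h and 26.1 to 34.1 CPM at 6 h, and the difference between the doses was 1.47 ± 0.143 (edgeR adjusted p = 6.35e-06). TNFAIP8L1, a member of the TNFAIP8 family, had 17.6, 15.9 and 16.8 CPM at 24 h and 6.88, 8.04 and 6.03 CPM at 6 h, while after 1 Gy it stayed between 18.2 and 21.5 CPM in all libraries (difference 1.32 ± 0.176, edgeR adjusted p = 0.000373). LAMA5, a laminin chain of basement membranes, had a difference of 0.64 ± 0.122 (edgeR adjusted p = 0.0201), with 6 Gy libraries at 6 h (239 to 267 CPM) that overlapped those of 1 Gy at 6 h (215.5 to 290.1 CPM). The 3 genes with a more negative change after 6 Gy were AKR1C3, NFE2L3 and BTG3. The transcription factor gene NFE2L3 averaged 80.6 ± 4.11 CPM at 24 h and 69.8 ± 2.34 CPM at 6 h after 6 Gy. After 1 Gy it had 110.4 to 117 CPM at 24 h and 61.9 to 68.3 CPM at 6 h (difference -0.60 ± 0.106, edgeR adjusted p = 0.00987). AKR1C3, an aldo-keto reductase, had a difference of -0.83 ± 0.179 (edgeR adjusted p = 0.0442), and BTG3, an antiproliferative gene, of -0.56 ± 0.112 (adjusted p = 0.0249). The number of genes called in this comparison moved by more than 1.5 times when single libraries were left out, to 15 more positive genes without replicate 2 of 6 Gy at 6 h, 17 without replicate 1 of 1 Gy at 6 h, 18 without replicate 3 of 6 Gy at 6 h, of 6 Gy at 24 h or of 1 Gy at 24 h, and 19 without replicate 2 of 1 Gy at 24 h. The 3 more negative genes became 1 without any of these libraries or without replicate 3 of 1 Gy at 6 h, and 5 without replicate 1 of 6 Gy at 6 h. The calls of AKR1C3, BTG3, LAMA5 and HIST1H2AG were each lost without several single libraries, and those of CCNB2 and NFE2L3 without replicate 3 of 1 Gy at 6 h. KIF20A, PIF1, CCNB1, CCNB3, PLK1 and TNFAIP8L1 were called in all 20 alternative settings.

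**Figure D2:**
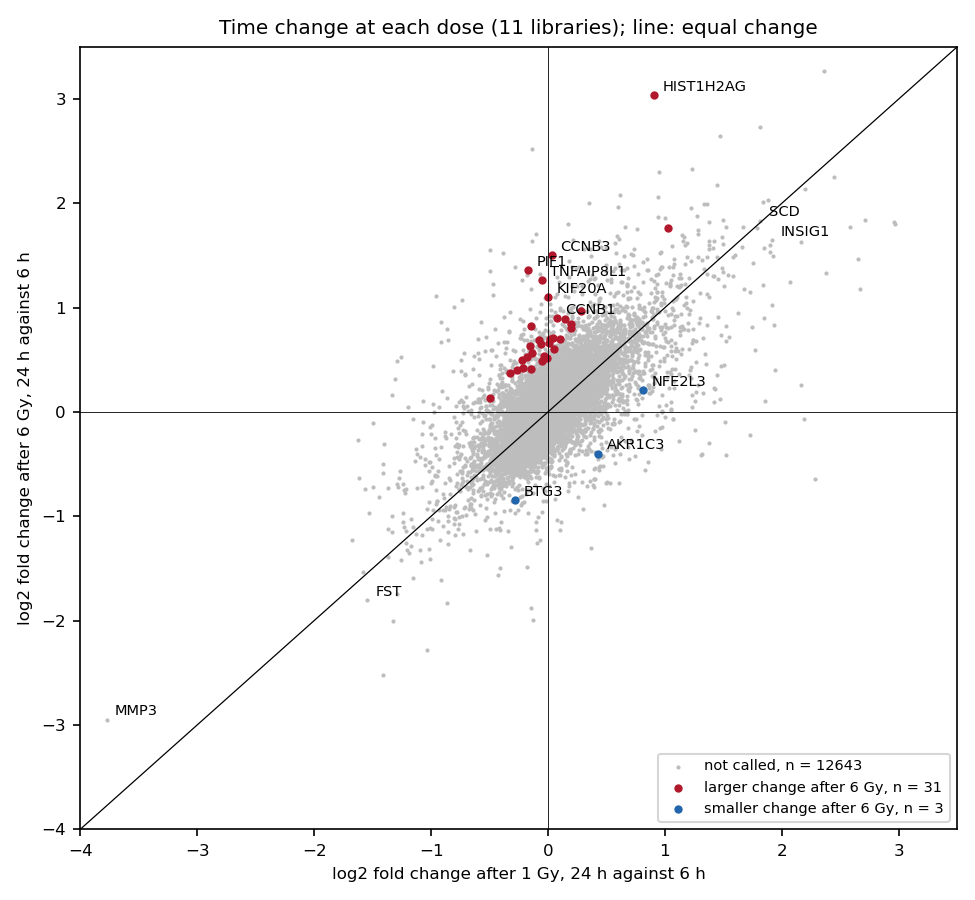
Log2 fold change of 24 h over 6 h after 1 Gy (x axis) against that after 6 Gy (y axis) for 12677 genes in the fit of 11 libraries; the diagonal marks equal change. Red points are the 31 genes with a more positive change after 6 Gy and blue points the 3 with a more negative one. CCNB3, PIF1, KIF20A and CCNB1 lie near 0 on the 1 Gy axis and near or above 1 on the 6 Gy axis, while SCD, INSIG1, FST and MMP3 lie close to the diagonal or, for MMP3, further from 0 after 1 Gy.

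A few genes of DNA replication were lower at 24 h than at 6 h. Of 51 tested genes of G1/S and replication, 0 were higher and 4 were lower (7.84%, against 3.17% of all tested genes), and 44 had a negative log2 fold change (median -0.25). RRM2, the small subunit of ribonucleotide reductase that supplies deoxynucleotides, had 671, 715 and 714 CPM at 24 h and 1021, 1041 and 1038 CPM at 6 h. The difference was several times the spread between libraries (log2 -0.56 ± 0.0512, edgeR adjusted p = 1.18e-06). In unirradiated cells RRM2 was between the 2 collections, at 794 to 806 CPM. CDC45, a part of the replicative helicase, averaged 62.8 ± 3.95 CPM at 24 h and 108 ± 3.80 CPM at 6 h (log2 -0.78 ± 0.0713, edgeR adjusted p = 1.19e-06). GINS1 of the same helicase and CLSPN, claspin of the replication checkpoint, were called with log2 fold changes of -0.51 and -0.53. Of 45 break repair genes, 0 were higher and 2 lower (4.44%, near the 3.17% of all tested genes, median -0.17). These were FANCD2, the central protein of the Fanconi anemia pathway, and the helicase gene BLM, each with a log2 fold change of -0.52. The calls of GINS1, CLSPN, BLM and FANCD2 lay close to the fold threshold and were lost under scaling by library totals. They were also lost for GINS1, CLSPN and FANCD2 without replicate 1 of 6 Gy at 24 h, for CLSPN without replicate 3 and BLM without replicate 2 of 6 Gy at 24 h, and, of 6 Gy at 6 h, for BLM and CLSPN without replicate 2, FANCD2 without replicate 1 and GINS1 without replicate 3.

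Many genes of sterol and fatty acid synthesis were higher at 24 h, and SCD and SREBF1 were among the 3 genes with the lowest adjusted p of the comparison. Of 22 tested genes of cholesterol biosynthesis, 7 were higher and 0 lower (31.8%, median log2 fold change 0.46), and of 17 further SREBP regulators and targets, 9 were higher and 0 lower (52.9%, median 0.54). Of all tested genes, 7.43% were higher. SCD, stearoyl-CoA desaturase, which makes monounsaturated fatty acids (chromosome 10, 102106772 to 102124588), had 387, 403 and 437 CPM at 24 h and 113, 111 and 119 CPM at 6 h. No other tested gene had a lower adjusted p (3.57-fold, log2 1.84 ± 0.0635, edgeR adjusted p = 4.43e-11). Unirradiated libraries, with 118 to 127 CPM, were at the 6 h level. SREBF1, which encodes SREBP-1, had 259.6, 214 and 249 CPM at 24 h and 81.4, 76.3 and 75.0 CPM at 6 h (3.11-fold, edgeR adjusted p = 2.42e-09), at a locus that overlaps RAI1 on the opposite strand. INSIG1, which retains the SREBP complex in the endoplasmic reticulum, had 64.4, 77.8 and 74.2 CPM at 24 h and 21.5, 23.8 and 23.6 CPM at 6 h (3.14-fold, edgeR adjusted p = 7.05e-09). In these 3 genes the groups did not overlap, as was true of 46.2% of all tested genes.

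Within the pathway, members of several steps were higher. IDI1, which forms the isoprenoid building block dimethylallyl diphosphate, averaged 66.3 ± 6.87 CPM at 24 h and 41.4 ± 1.90 CPM at 6 h. FDFT1, squalene synthase, averaged 188 ± 19.6 CPM at 24 h and 105 ± 0.829 CPM at 6 h. MSMO1, a sterol methyl oxidase, had 33.0, 45.0 and 40.0 CPM at 24 h and 21.3, 18.0 and 19.8 CPM at 6 h (log2 1.00 ± 0.112, edgeR adjusted p = 9.94e-06). DHCR7, which catalyses the last step to cholesterol, had the smallest change of the 4, with a log2 fold change of 0.58 ± 0.0872. After 1 Gy the corresponding log2 fold changes were 0.74 for IDI1, 0.76 for FDFT1, 0.90 for MSMO1, 0.77 for DHCR7, 1.82 for SCD, 1.37 for SREBF1 and 1.92 for INSIG1, and none of these 7 genes was called in the test of the difference between doses. A sterol regulatory element core, TCACNCCAC, was searched in the promoters of the called members. In the 150 bases nearest the start it was found in 0 of 13, against 0.615% of all promoters. In the whole 300 bases it was found in 1 of 13 (7.69%), against 1.15% of all promoters, that of SREBF2, which encodes SREBP-2. The 250 bases before its start (GRCh38.p14, chr22:41832855-41833104, plus strand) are shown with the match, which begins 133 bases before the start, in capitals.
SREBF2: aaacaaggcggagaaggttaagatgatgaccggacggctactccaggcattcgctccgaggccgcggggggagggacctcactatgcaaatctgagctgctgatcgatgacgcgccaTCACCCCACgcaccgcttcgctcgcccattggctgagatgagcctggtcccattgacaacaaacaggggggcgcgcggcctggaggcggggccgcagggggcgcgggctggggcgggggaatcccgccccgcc
SREBF2 itself had 177, 161 and 178 CPM at 24 h and 99.2, 94.9 and 95.9 CPM at 6 h (log2 0.83 ± 0.0666, edgeR adjusted p = 3.35e-07).

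**Figure D3:**
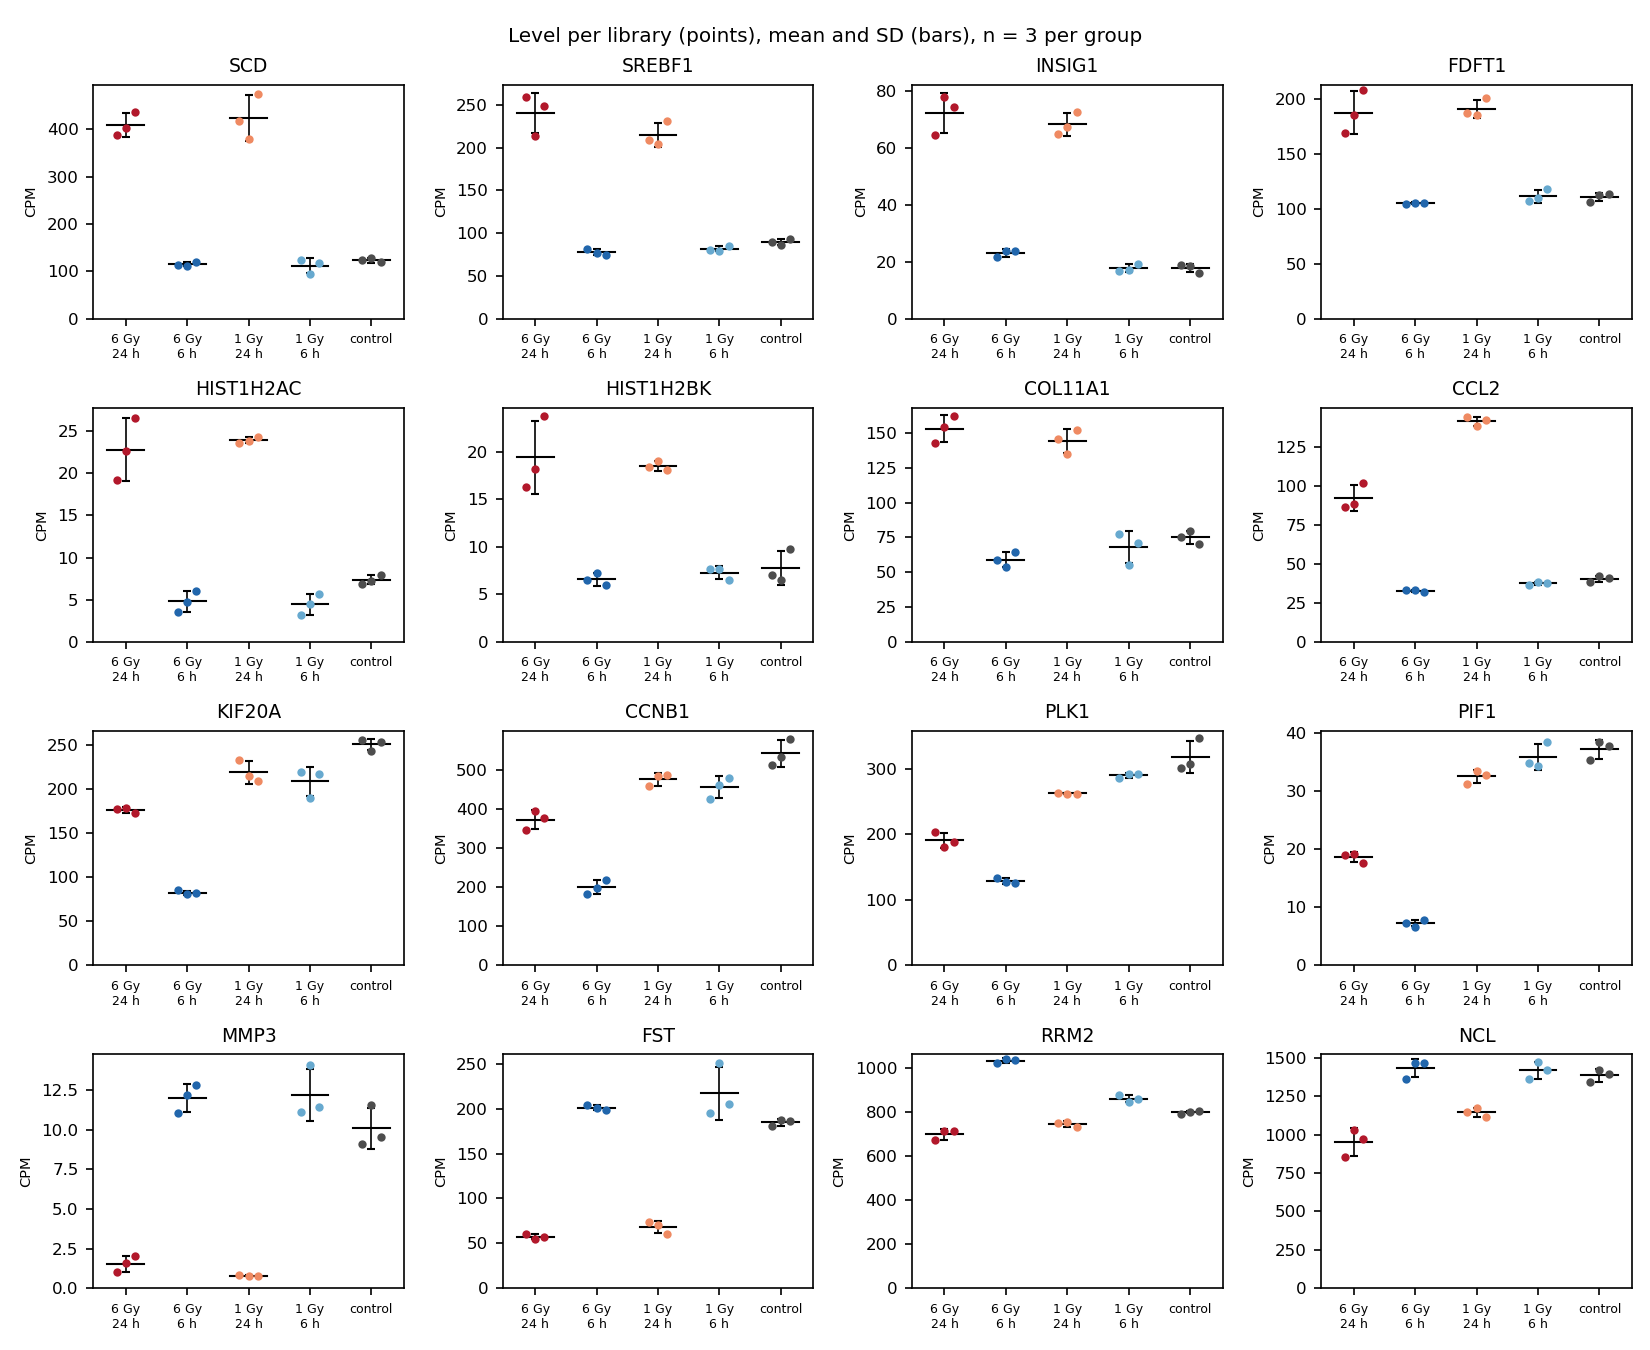
Level of 16 genes in CPM (y axis, from 0) in each library (points), with the group mean and SD (bars, n = 3 per group), in cells collected 24 h and 6 h after 6 Gy, 24 h and 6 h after 1 Gy, and in unirradiated control cells. The sterol genes are high in both 24 h groups, while KIF20A, CCNB1, PLK1 and PIF1 are lowest in the 6 Gy 6 h libraries, where KIF20A lies between 80.3 and 84.8 CPM.

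Several clustered histone genes were higher at 24 h, some of them from few reads. Their main transcripts end in a stem-loop without a poly(A) tail, and the libraries were made from poly(A) RNA, so that only polyadenylated forms were measured. Of 57 such genes in the table, 11 passed the filter on low counts, and 10 of these were higher at 24 h (median log2 fold change 1.82, but 0.94 with no filter and 0.91 by DESeq2). The remaining gene, HIST1H4C, had a log2 fold change of -0.94 (edgeR adjusted p = 0.473). The filter keeps genes that reach the minimum in 1 of the collections, so a low gene could pass through its 24 h level alone, and nothing is drawn from the share called. HIST1H2AC, an H2A gene (chromosome 6, 26124373 to 26124918), had 19.2, 22.6 and 26.6 CPM at 24 h and 3.54, 4.78 and 6.03 CPM at 6 h (4.75-fold, log2 2.25 ± 0.17, edgeR adjusted p = 1.94e-07). HIST1H2BK, an H2B gene, had 16.3, 18.2 and 23.7 CPM at 24 h and 6.46, 7.28 and 5.93 CPM at 6 h (2.96-fold). In both, each 24 h library was above each 6 h library. The groups did not overlap in 46.2% of all tested genes, and a rule that named HIST1H2AC asked for this. Unirradiated libraries held 6.89 to 7.97 CPM of HIST1H2AC, above each 6 h library and below each 24 h library. For HIST1H2BK they held 6.46 to 9.81 CPM, which overlapped the 6 h libraries and was below each 24 h library. HIST1H2BJ had only 27, 50 and 38 reads at 24 h and 3, 4 and 4 reads at 6 h, with a log2 fold change of 3.27 ± 0.371 (edgeR adjusted p = 1.09e-05). HIST1H2AG, its neighbour on chromosome 6, had 40, 46 and 55 reads at 24 h and 5, 7 and 4 reads at 6 h (log2 3.04 ± 0.305, edgeR adjusted p = 3.25e-06), and its difference from the 1 Gy time course was 2.13 ± 0.464 (edgeR adjusted p = 0.049). These genes have near-identical copies, and reads shared among the copies make the values of single members uncertain.

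Among extracellular matrix genes, 11 of 35 tested were higher and 2 lower (31.4% and 5.71%, against 7.43% and 3.17% of all tested genes, median log2 fold change 0.28), and of 22 integrin and laminin genes, 6 were higher and 0 lower (median 0.22). COL11A1, a fibrillar collagen chain, had 143, 154 and 162 CPM at 24 h and 58.8, 53.8 and 64.9 CPM at 6 h (2.59-fold, edgeR adjusted p = 9.14e-09). The collagen V chains changed in the same direction: COL5A2 averaged 149 ± 15.6 CPM at 24 h and 69.7 ± 5.24 CPM at 6 h, and COL5A1 averaged 240.3 ± 21.0 CPM at 24 h and 138 ± 13.8 CPM at 6 h. ITGB4, the integrin β4 chain of hemidesmosomes, had 374, 323 and 366 CPM at 24 h and 216, 179 and 202 CPM at 6 h (log2 0.83 ± 0.0745, edgeR adjusted p = 9.88e-07). LAMA5 averaged 448 ± 59.7 CPM at 24 h and 249.7 ± 14.9 CPM at 6 h. LOX, which crosslinks collagen, went the other way, with 35.4 ± 1.57 CPM at 24 h and 57.4 ± 0.623 CPM at 6 h (log2 -0.70 ± 0.0761, edgeR adjusted p = 7.37e-06).

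Among matrix proteases, 3 of 22 tested genes were higher and 4 were lower (13.6% and 18.2%, against 7.43% and 3.17% of all tested genes). MMP3, stromelysin 1 (chromosome 11, 102706528 to 102714342), had the largest decrease among the genes named here, with 1.00, 1.58 and 2.05 CPM at 24 h and 11, 12.2 and 12.8 CPM at 6 h. These were 10, 16 and 20 reads at 24 h and 106, 112 and 123 reads at 6 h (7.73-fold higher at 6 h, log2 -2.95 ± 0.202, edgeR adjusted p = 8.33e-08). The plasminogen activators, by contrast, were higher at 24 h: PLAT had 186, 184 and 201 CPM at 24 h and 87.4, 87.7 and 96.1 CPM at 6 h (log2 1.08 ± 0.0672, edgeR adjusted p = 2.56e-08), and PLAU had 191, 207 and 219.7 CPM at 24 h and 123, 115 and 122 CPM at 6 h. The receptor of PLAU, encoded by PLAUR, was lower, with 31.3, 28.3 and 32.8 CPM at 24 h and 71.9, 62.0 and 65.5 CPM at 6 h (log2 -1.11 ± 0.086, edgeR adjusted p = 2.51e-07). An activator and its receptor moved in opposite directions.

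In the TGF-β family the secreted antagonists FST and NOG were lower and the transducer SMAD3 was higher. Of 32 tested family members from ligand to SMAD, 5 passed upward and 4 downward, with a median log2 fold change of 0.08, and of 29 targets 4 passed upward and 6 downward, with a median of -0.03. These were 15.6% and 12.5% of the family and 13.8% and 20.7% of the targets, against 7.43% and 3.17% of all tested genes. FST, follistatin, which binds and blocks activins (chromosome 5, 52776264 to 52782304), had 60.9, 55.0 and 56.7 CPM at 24 h and 204, 201 and 198 CPM at 6 h. The libraries of each collection were within a few CPM of each other (log2 -1.80 ± 0.0678, edgeR adjusted p = 8.24e-11), and unirradiated cells held 180.5 to 187 CPM. NOG, noggin, which blocks BMP ligands, was measured at a low level, 2.28 ± 0.564 CPM at 24 h and 5.83 ± 0.906 CPM at 6 h (edgeR adjusted p = 0.000253). SMAD3, which carries TGF-β and activin signals to the nucleus, had 166, 166 and 164 CPM at 24 h and 87.1, 76.7 and 88.6 CPM at 6 h (log2 0.97 ± 0.068, edgeR adjusted p = 9.48e-08). Among targets, CTGF, a matricellular protein, averaged 199 ± 5.2 CPM at 24 h and 294 ± 12.7 CPM at 6 h, IL11, a cytokine, averaged 23.5 ± 3.94 CPM at 24 h and 48.6 ± 6.93 CPM at 6 h, and PDGFB, a growth factor chain, averaged 15.3 ± 1.55 CPM at 24 h and 6.89 ± 0.552 CPM at 6 h.

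Of 19 tested genes of inflammatory secretion and adhesion, 7 were higher and 3 lower (median log2 fold change 0.34). These were 36.8% and 15.8%, against 7.43% and 3.17% of all tested genes. The lower genes were the chemokines CXCL3 (log2 -1.18) and CXCL6 (-0.63) and the cytokine gene IL11 (-1.05). CCL2, which attracts monocytes, had 86.3, 88.6 and 102 CPM at 24 h and 33.0, 33.0 and 32.0 CPM at 6 h (2.82-fold, log2 1.5 ± 0.082, edgeR adjusted p = 7.05e-09). CSF1, the growth factor of macrophages, had 244, 226 and 233 CPM at 24 h and 130.4, 128 and 129 CPM at 6 h (1.81-fold, edgeR adjusted p = 1.1e-07). IL34, which shares its receptor with CSF1, rose at a low level, with 3.35 ± 0.279 CPM at 24 h and 1.27 ± 0.314 CPM at 6 h. The 24 h libraries lay above the 6 h libraries in these 3 genes, while the groups did not overlap in 46.2% of all tested genes. After 1 Gy CCL2 was higher still at 24 h, at 138 to 144 CPM, against 36.5 to 38.4 CPM at 6 h, and its difference between doses was not called.

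Of 21 NF-kB subunits and inhibitors, 5 were higher and 0 lower (23.8% higher, against 7.43% of all tested genes, median 0.10). MAP3K14, the kinase NIK of the noncanonical branch, had 192, 182 and 199 CPM at 24 h and 125, 107 and 115 CPM at 6 h (log2 0.73 ± 0.0691, edgeR adjusted p = 1.81e-06). BCL3, a nuclear co-regulator, averaged 25.2 ± 5.97 CPM at 24 h and 13 ± 1.32 CPM at 6 h, and NFKBIA, the inhibitor IκBα, averaged 56.3 ± 5.85 CPM at 24 h and 38.4 ± 3.76 CPM at 6 h. The call of NFKBIA was lost without replicate 1 of 6 Gy at 6 h, and that of RELB (log2 0.56 ± 0.107) without replicate 1 of 6 Gy at 24 h. An NF-kB type site was searched as a single pattern of letters, and other forms of the site were not searched. Of the 12 called higher NF-kB and inflammatory genes, 7 had promoters that could be scanned. Matches to this pattern were present in 2 of the 7, those of NFKBIA and TNFAIP3 (28.6%, against 1.92% of all promoters). An AP-1 site, TGANTCA, was present in 0 of the 3 promoters that could be scanned for 5 called AP-1 and immediate early genes. It was present in 7.76% of all promoters. Of 35 interferon-stimulated genes, 9 were higher and 1 lower (25.7% and 2.86%, against 7.43% and 3.17% of all tested genes, median 0.26). STAT2, a transducer of type I interferon signals, averaged 64.6 ± 2.60 CPM at 24 h and 44.4 ± 0.797 CPM at 6 h, IRF1 averaged 44.0 ± 4.54 CPM at 24 h and 28.5 ± 1.29 CPM at 6 h, and PARP14 averaged 56.5 ± 1.13 CPM at 24 h and 36.9 ± 4.57 CPM at 6 h. Of 18 genes of MHC class I presentation, 0 were called (median 0.03), against 10.6% of all tested genes.

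**Figure D4:**
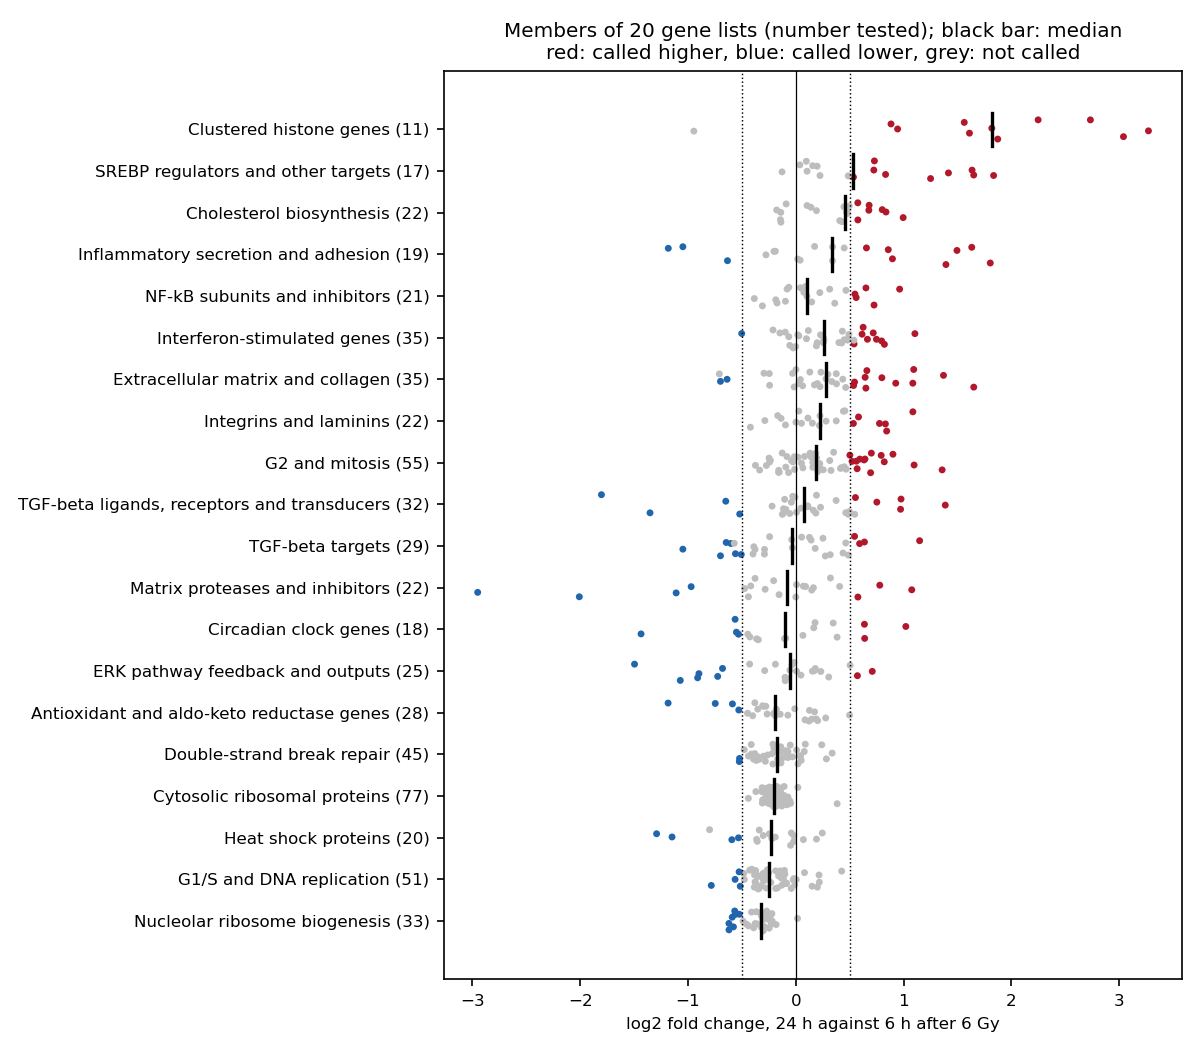
Log2 fold change of 24 h over 6 h after 6 Gy (x axis) for the tested members of 20 gene lists (rows, with the number tested). Red points were called higher, blue points lower and grey points neither, black bars are list medians and dotted lines mark 0.5 and -0.5. The median was -0.32 for nucleolar ribosome biogenesis, where 7 genes were lower and 0 higher, and 0.46 for cholesterol biosynthesis, where 7 were higher and 0 lower. Of all tested genes, 7.43% were higher and 3.17% lower. The clustered histone genes shown are the 11 of 57 that passed the filter.

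Several genes of the ERK growth signalling cascade were lower at 24 h. Of 25 feedback and output genes of the ERK pathway, 2 were higher and 6 lower (24%, against 3.17% of all tested genes). FOSL1, the AP-1 subunit FRA1, had 109, 89.7 and 90.9 CPM at 24 h and 218, 191 and 199.8 CPM at 6 h (log2 -1.07 ± 0.0807, edgeR adjusted p = 1.94e-07). DUSP4, a phosphatase that inactivates ERK, had 41.4, 36.6 and 38.1 CPM at 24 h and 74.4, 72.6 and 71.1 CPM at 6 h (log2 -0.91 ± 0.0776, edgeR adjusted p = 6.92e-07). HBEGF, a ligand of the EGF receptor, averaged 27.1 ± 2.81 CPM at 24 h and 50.5 ± 6.86 CPM at 6 h. Outside this list, S1PR1, a receptor for sphingosine-1-phosphate, had 8.74, 9.98 and 8.90 CPM at 24 h and 36.3, 27.1 and 29.3 CPM at 6 h (log2 -1.74 ± 0.126, edgeR adjusted p = 1.2e-07). RGS4, which dampens signals of G protein-coupled receptors, averaged 30.0 ± 1.85 CPM at 24 h and 72.0 ± 7.41 CPM at 6 h. NT5E, the ectonucleotidase CD73 that releases adenosine, had 84.3, 85.6 and 78.0 CPM at 24 h and 184, 179 and 176 CPM at 6 h (log2 -1.12 ± 0.0655, edgeR adjusted p = 1.32e-08). All 6 genes were lower in each 24 h library than in each 6 h library. The groups did not overlap in 46.2% of all tested genes, and the rule naming the largest changes asked for this.

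In the Wnt pathway, 6 of 26 tested genes were higher and 2 lower (23.1% and 7.69%, against 7.43% and 3.17% of all tested genes). The 2 lower genes were DKK1, a secreted antagonist of canonical Wnt signals, and WNT5A, a ligand of the noncanonical branch. DKK1 had 366, 379 and 391 CPM at 24 h and 754, 739 and 755 CPM at 6 h (log2 -0.98 ± 0.0525, edgeR adjusted p = 7.05e-09), and WNT5A averaged 36.2 ± 3.85 CPM at 24 h and 66.2 ± 1.96 CPM at 6 h. Receptors were among the higher genes: LGR4, the R-spondin receptor, averaged 121 ± 4.30 CPM at 24 h and 69.2 ± 3.05 CPM at 6 h, and LRP6, the Wnt co-receptor that DKK1 blocks, averaged 86.2 ± 7.72 CPM at 24 h and 52.1 ± 6.73 CPM at 6 h. Of 18 clock genes, 3 were higher and 4 lower (16.7% and 22.2%, beside the same shares of all tested genes). ARNTL, which encodes the clock activator BMAL1, had 29.0, 29.0 and 27.9 CPM at 24 h and 14.8, 13.8 and 13.7 CPM at 6 h (log2 1.02 ± 0.0965, edgeR adjusted p = 1.73e-06), and PER3, a repressor of the clock, averaged 16 ± 1.34 CPM at 24 h and 23.7 ± 1.59 CPM at 6 h.

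Several genes of ribosome production and protein folding were lower at 24 h. Of 33 genes of nucleolar ribosome biogenesis, 0 were higher and 7 lower (21.2%, against 3.17% of all tested genes), and 32 had a negative log2 fold change (median -0.32). NCL, nucleolin, had 856, 1030 and 970.1 CPM at 24 h and 1364, 1464 and 1469 CPM at 6 h (log2 -0.59 ± 0.0633, edgeR adjusted p = 6.58e-06). NOP56, a protein of the box C/D snoRNPs that guide rRNA methylation, had 249.7, 258 and 257 CPM at 24 h and 374, 399.5 and 401 CPM at 6 h (log2 -0.62 ± 0.057, edgeR adjusted p = 1.3e-06). Of 77 cytosolic ribosomal protein genes, 0 passed both thresholds, but 75 had a negative log2 fold change (median -0.20) and 54 of them passed the adjusted p alone. Of all 12306 tested genes, 2084 were lower by the adjusted p alone. The ribosomal protein genes were then summed. Their summed level was 37871 to 40300 CPM at 24 h and 43432 to 45787 CPM at 6 h, without overlap. Of 20 heat shock genes, 0 were higher and 4 lower (20% lower, against 3.17% of all tested genes, median -0.23). HSPA8, the constitutive HSP70, averaged 1870 ± 68.4 CPM at 24 h and 2821 ± 66.6 CPM at 6 h (log2 -0.59 ± 0.049, edgeR adjusted p = 5.16e-07). HSPA1B, the inducible HSP70, had 83.0, 79.4 and 76.8 CPM at 24 h and 172, 168 and 189 CPM at 6 h, a value shared with its near-identical copy HSPA1A, between which reads could not be separated with certainty.

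Targets of p53 were mixed, with 4 of 31 tested genes higher and 1 lower (median -0.02). These were 12.9% and 3.23%, against 7.43% and 3.17% of all tested genes. U251 carries a mutant p53. BTG2, an antiproliferative gene, averaged 8.41 ± 0.999 CPM at 24 h and 4.31 ± 0.889 CPM at 6 h (log2 0.97 ± 0.18, edgeR adjusted p = 0.000744). BBC3, which encodes the pro-apoptotic PUMA, averaged 5.87 ± 0.547 CPM at 24 h and 2.93 ± 0.395 CPM at 6 h. CCNG1, cyclin G1, had 109, 122 and 117 CPM at 24 h and 69.9, 81.3 and 70.6 CPM at 6 h (log2 0.65 ± 0.0769, edgeR adjusted p = 1.53e-05). Of 27 apoptosis regulators, 2 were higher and 0 lower (7.41% higher, near the 7.43% of all tested genes). Among the genes whose chromosomal contacts the study followed, PRSS35, a serine protease, had 56.5, 58.7 and 61.2 CPM at 24 h and 19.4, 26.8 and 23.4 CPM at 6 h (log2 1.34 ± 0.103, edgeR adjusted p = 2.25e-07). TRIM29 averaged 2.98 ± 0.582 CPM at 24 h and 2.32 ± 0.526 CPM at 6 h (log2 0.36 ± 0.252, edgeR adjusted p = 0.29), and PPIB, cyclophilin B, averaged 170.3 ± 7.61 CPM at 24 h and 167 ± 7.34 CPM at 6 h (log2 0.03 ± 0.0631, edgeR adjusted p = 0.788). The libraries of these 2 genes overlapped between the collections. HCRTR2 did not pass the filter.

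Further genes with large changes had other roles. SLC2A12, a glucose transporter, had 29.6, 32.3 and 32.6 CPM at 24 h and 8.86, 7.39 and 9.36 CPM at 6 h (3.69-fold, edgeR adjusted p = 1.5e-08). RAB26, a small GTPase of vesicle traffic, had 19.2, 13.2 and 15 CPM at 24 h and 4.79, 4.35 and 4.68 CPM at 6 h (3.43-fold, edgeR adjusted p = 1.66e-06). DDIT4, an inhibitor of mTORC1 signalling, averaged 40.1 ± 1.87 CPM at 24 h and 17.1 ± 0.719 CPM at 6 h (2.34-fold, edgeR adjusted p = 1.47e-07). The autophagy genes ULK1, a kinase, and GABARAPL1, an ATG8 protein, were higher by log2 0.68 each, 2 of the 4 genes called higher among 41 of lysosome and autophagy. Those 4 genes were 9.76% of the list, near the 7.43% of all tested genes. Of 28 antioxidant and aldo-keto reductase genes, 0 were higher and 4 lower (14.3% lower, against 3.17% of all tested genes, median -0.20). Among the lower genes, HMOX1, heme oxygenase 1, had 25.0 ± 2.89 CPM at 24 h and 37.6 ± 2.48 CPM at 6 h, a call lost without replicate 2 of 6 Gy at 24 h. AKR1B10 had 4.99 ± 0.597 CPM at 24 h and 11.3 ± 1.30 CPM at 6 h. Of 24 contractile genes, 2 were higher and 3 lower (8.33% and 12.5%, against 7.43% and 3.17% of all tested genes). ACTB, cytoplasmic β-actin, was the most abundant of the lower genes, with 8299, 8051 and 8051 CPM at 24 h and 11862, 12024 and 11536 CPM at 6 h (log2 -0.54 ± 0.0454, edgeR adjusted p = 6.18e-07), a call that was lost under scaling by library totals.

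The identity of the cells was checked against markers. VIM (1360 to 1490 CPM at 24 h and 1390 to 1640 CPM at 6 h), CD44 and SOX2 were abundant, while the astrocyte gene GFAP was at 2.86 to 4.32 CPM at 24 h and 2.91 to 3.37 CPM at 6 h and OLIG2 had 0 counts. AQP4 had 1 count and CHI3L1 had 10 counts over the 6 libraries. None of the 7 tested glial and glioblastoma markers was called. Of 6 blood cell markers, 0 passed the filter, and their summed level was 0.791 to 1.61 CPM at 24 h and 0.652 to 0.834 CPM at 6 h, with CD3E and HBB at 0 counts. The part of other cell types in the results was not tested. The sum of 3 endothelial markers was 9.24 to 11.8 CPM at 24 h and 4.06 to 4.69 CPM at 6 h and came from CDH5 (log2 1.27 ± 0.157, edgeR adjusted p = 2.32e-05), while PECAM1 had 0 counts. The sum of 5 neuron markers was 48.3 to 51.5 CPM at 24 h and 36.4 to 37.9 CPM at 6 h. The called gene among 3 tested was SYT1, with 30.5 to 35.3 CPM at 24 h and 19.1 to 22.3 CPM at 6 h. GAD1 went the other way, with 6.85 to 7.53 CPM at 24 h and 8.53 to 10.9 CPM at 6 h. SNAP25 overlapped between the collections, and STMN2 had 0 counts. Among 5 epithelial markers, KRT8 had 78.5 to 84.8 CPM at 24 h and 62.3 to 63.9 CPM at 6 h. KRT18 had 75.7 to 82.7 CPM at 24 h and 86.3 to 92 CPM at 6 h, while EPCAM had 0 counts. Of the 3 epithelial markers tested, 0 were called. Replicate 1 of 6 Gy at 24 h stood somewhat apart: the variance of its counts was 7.12 and 5.03 times Poisson against the other 24 h libraries, which were at 1.85 times against each other. With single libraries left out, 841 to 974 genes were higher and 350 to 438 lower.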

How the data were processed

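Per the labels and the study's methods, the authors made the libraries from poly(A) RNA, used TopHat for alignment to hg19, and deposited raw read counts per gene from HTSeq, with tool versions not given in the sources used. A table of the authors' own comparisons, with scaled values, fold changes and p-values, was not used. Counts were tested with edgeR 4.0.16 (limma 3.58.1, R 4.3.3): filterByExpr (minimum count 10, total 15, large n 10, proportion 0.7), TMM scaling, a quasi-likelihood fit of the 6 libraries and Benjamini-Hochberg adjustment over all tested genes. The SE is the absolute log2 fold change divided by the square root of F. The dose comparison used 11 libraries, as the library left out is not among those in the study's expression table. CPM was scaled over 15 libraries. DESeq2 1.42.0 was an alternative, beside other scalings, filters, tests, thresholds, sample sets, a replicate block and the omission of single libraries. Motifs and figures were made with Python 3.11.15 (numpy 2.4.6, pandas 2.3.3, scipy 1.17.1, matplotlib 3.10.9). The test was tested on simulated data.

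The members and the 38 gene lists were chosen with earlier results of these data known. Genes were named from the 15 largest changes per direction that averaged 2 CPM or more without overlap between groups, up to 4 called members per list by adjusted p, the genes the paper names, and the 5 largest dose differences per direction. SREBF2, TNFAIP3, HIST1H4C, CDK1, AURKB, KIF14, CXCL3 and CXCL6, which lie outside the rule, and the choice among those inside it, were picked after their values were seen. Separate cultures are stated by the study and not by the labels, so p-values may measure technical spread. A result on an item withheld for evaluation is not reported here.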

Additional observations from a re-analysis of the deposited data

Results flagged for a closer look

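For 13 of the genes named, the change between the 24 h and the 6 h collection differed between 6 Gy and 1 Gy by a test of the difference itself (edgeR, interaction of dose and time, 11 libraries). The difference, 6 Gy minus 1 Gy on the log2 scale, was positive for the mitotic genes PIF1 (1.53), KIF20A (1.094), ASPM (0.9709), CCNB1 (0.828), PLK1 (0.709) and CCNB2 (0.5919), and for CCNB3 (1.473), TNFAIP8L1 (1.317), HIST1H2AG (2.13) and LAMA5 (0.6433). It was negative for AKR1C3 (-0.831), NFE2L3 (-0.605) and BTG3 (-0.5614). HIST1H2AG rested on 4 to 7 reads per library at 6 h after 6 Gy. With the left-out library restored, the calls of ASPM, LAMA5, AKR1C3 and BTG3 were lost.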

How the results depend on the processing

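A fold threshold of 1 on the log2 scale left 206 higher and 58 lower genes, and no minimum fold gave 2154 and 2084. Under the other alternatives both counts stayed within 1.5 times those reported, and 777 of 1304 called genes were called in all 18 settings. Without single libraries 841 to 974 genes were higher and 350 to 438 lower. Under library totals 1087 were higher and 299 lower, so that 78.4% of called genes were higher, against 70.1%, and the median of all genes moved to 0.0409. In the dose comparison, the more positive and more negative genes numbered 81 and 14 with no filter, 63 and 9 by the likelihood ratio test, and 16 and 1 with 12 irradiated libraries. There were 19 more positive genes with 15 libraries, and 6 more negative genes by DESeq2. Without single libraries they numbered 15 to 38 and 1 to 5, and 10 of 34 were called in all 20 settings. The cause of these moves was not tested.

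With the replicate number as a block, 961 genes were higher and 418 lower, and the dose comparison gave 68 and 10. Deviations of same-numbered libraries correlated at 0.262, 0.0976 and 0.117 across genes, so the numbers were not taken to pair the libraries. Each library correlated best with its own number, which is a hint from the data and not from the design.

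Among named genes, 52 pairs of a gene and a setting lost a call, in 22 genes. In 2 pairs the sign changed without a call: KIF23 under library totals (0.0012) and PPIB without replicate 1 of 6 Gy at 6 h (-0.01), where PPIB ranged from -0.0106 to 0.0542 without single libraries. In the dose comparison 41 such pairs lost a call, in 7 genes. With 3 libraries per group, precision was limited for genes with few reads.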
